A study of Rattus norvegicus with 6 samples.

Results

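The proteasome is the protease that breaks down proteins tagged with ubiquitin, and the genes described here encode its subunits, its assembly factors and its activators. They were taken by symbol, as every row of the count table named Psma, Psmb, Psmc, Psmd, Psme, Psmf or Psmg with a number, without the inducible immunoproteasome subunits Psmb8, Psmb9 and Psmb10. The rule found 40 of 14475 genes, and no measured value entered it. VSM cells were cultured from soleus feed arteries (SFA), which supply the soleus muscle, of male Fischer 344 rats aged 4 months (young, n = 3) or 24 months (old, n = 3). Each library came from the polyadenylated RNA of 1 culture, the cells had no treatment beyond growth in serum-containing medium, and RNA of a culture cannot show whether fewer cells of a type or less RNA per cell lies behind a lower value.

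The core particle is a barrel of outer alpha rings, encoded by Psma genes, and inner beta rings, encoded by Psmb genes, of which Psmb5, Psmb6 and Psmb7 carry the proteolytic sites. A regulatory particle caps the barrel. Its base holds a ring of ATPases, the Psmc subunits, which unfold the substrate and push it into the core, and its lid holds Psmd14, the enzyme that cuts the ubiquitin chain off the substrate. Other caps open the core without ubiquitin or ATP, namely the PA28 complex of Psme1 and Psme2 and the single large protein PA200, encoded by Psme4. In long-lived cells such as smooth muscle the proteasome removes damaged and surplus proteins, contractile proteins among them.

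The genes were abundant enough to be measured in every library, with 361 to 17876 counts for each of the 40 genes in each library, and total counts per library were 44235674 to 59700887. The 40 genes made up 0.333% to 0.441% of all counts. Values are given as CPM, counts scaled to the normalized library size, and levels were not compared between genes because they were not scaled to transcript length. Of the defining VSM markers, 8 of 8 were detected, with a summed level of 11207 to 20995 CPM in young and 3448 to 5562 CPM in old. Markers of other cells summed to at most 43.7 CPM for endothelial cells (5 of 9 markers in the table), 16.8 CPM for macrophages (3 of 9) and 28.6 CPM for skeletal muscle (2 of 9) in any library, with 0.244 to 0.765 CPM of the defining endothelial gene Pecam1. Fibroblast markers (8 of 9) summed to 193 to 503 CPM in young and 598 to 1481 CPM in old, Schwann cell markers (3 of 5) to 13.5 to 75.5 CPM in young and 54.9 to 86.4 CPM in old, and their part in the results below was not tested.

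Estimates for genes of the proteasome were slightly lower in old VSM cells, and none passed the test across all genes. Of the 40 genes, 35 had a lower mean estimate in old and 5 a higher one. Their median on the log2 scale was -0.16, a ratio of 0.895 to young, against 0.02 over all genes. The 31 genes that encode structural subunits of the core, base or lid were all on the lower side, from -0.49 for Psmd12 to -0.03 for Psmd1, although Psmd1 lay at or just above 0 without old replicate 2 or 3. The 5 genes on the other side were Psme1, Psme2, Psme4, Psmg3 and Psmg4, which encode activators and assembly factors. Of all 14475 genes, 48.0% were on the lower side. The 40 genes serve the same complex and are not replicates of each other, so counts of genes here and below are not independent observations.

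In edgeR's quasi-likelihood test, adjusted over all genes, 0 of the 40 genes had an adjusted p under 0.05, where 1 of all genes (0.00691%) did, and adjusted p for the 40 genes lay between 0.156 and 0.955. At an unadjusted p under 0.05, 9 of the 40 genes were lower in old, against 11.5% of all genes, and 0 were higher, against 11.2%. The 9 were the lid genes Psmd3, Psmd8, Psmd12, Psmd13 and Psmd14, the ATPase genes Psmc3 and Psmc4, and the catalytic genes Psmb5 and Psmb6. The DESeq2 Wald test called 0 of the 40 at an adjusted p under 0.05, against 12.5% of all genes. With limma-voom 0 of the 40 were called (lowest adjusted p = 0.147 from limma-voom), and its share over all genes was not computed. At an unadjusted p under 0.05, DESeq2 had 11 of the 40 lower in old, against 13.6% of all genes, and limma-voom 11, against 12.6%. None of the 40 genes reached an absolute log2 fold change of 1. Groups were fully apart with old below young in 12 of the 40 genes, against 14.7% of all genes, and with old above young in Psme4 and Psmg3, against 14.5%. For each of these 14 genes the exact two-sided permutation p was 0.1, the smallest that groups of 3 allow.

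**Figure D1:**
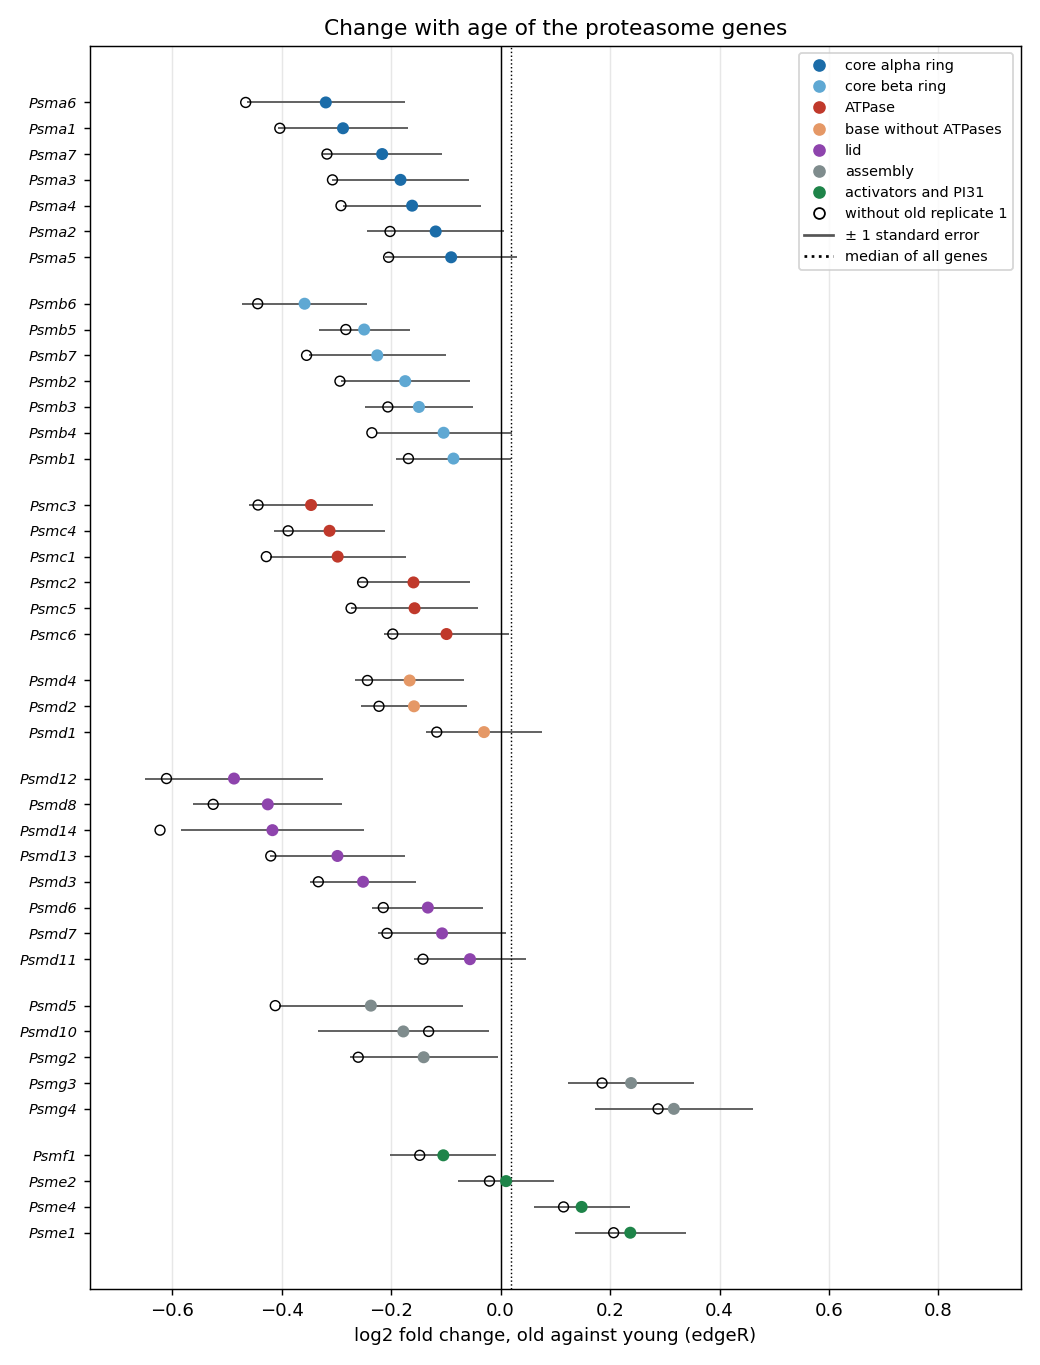
Log2 fold change of each of the 40 genes in old against young VSM cells (edgeR, x axis) with 1 standard error as bars, coloured by gene group, and the value without old replicate 1 as open circles. The filled points of the core, ATPase, base and lid genes all lie left of 0, from -0.49 to -0.03, whereas Psme1, Psme4, Psmg3 and Psmg4 lie between 0.15 and 0.32.

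The old cultures did not behave alike. Summed over the 40 genes, the level was 4321, 4170 and 4173 CPM in young replicates 1, 2 and 3 and 4213, 3635 and 3365 CPM in old replicates 1, 2 and 3. Old replicate 1 thus sat within the range of the young libraries, at 99.8% of their mean, while old replicates 2 and 3 stood at 86.1% and 79.7%. A like order was seen gene by gene. Among the 31 structural genes, old replicate 3 lay below all young libraries in 31 and old replicate 2 in 30, but old replicate 1 in only 12. Over all genes these shares were 36.1%, 35.4% and 29.3%. Old replicate 3 was the lowest of the 6 libraries in 29 of the 31 structural genes, against 23.4% of all genes.

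The young cultures were close to each other. The coefficient of variation of a gene had a median of 3.82% among the young and 12.0% among the old libraries over the 40 genes, compared with 8.22% and 12.4% over the 8646 genes within the same range of mean CPM. It was larger in old for 38 of the 40 genes, against 69.2% of the genes in that range and 65.5% of all genes. The tightest sum was that of the lid, at 906, 893 and 895 CPM in the young libraries.

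**Figure D2:**
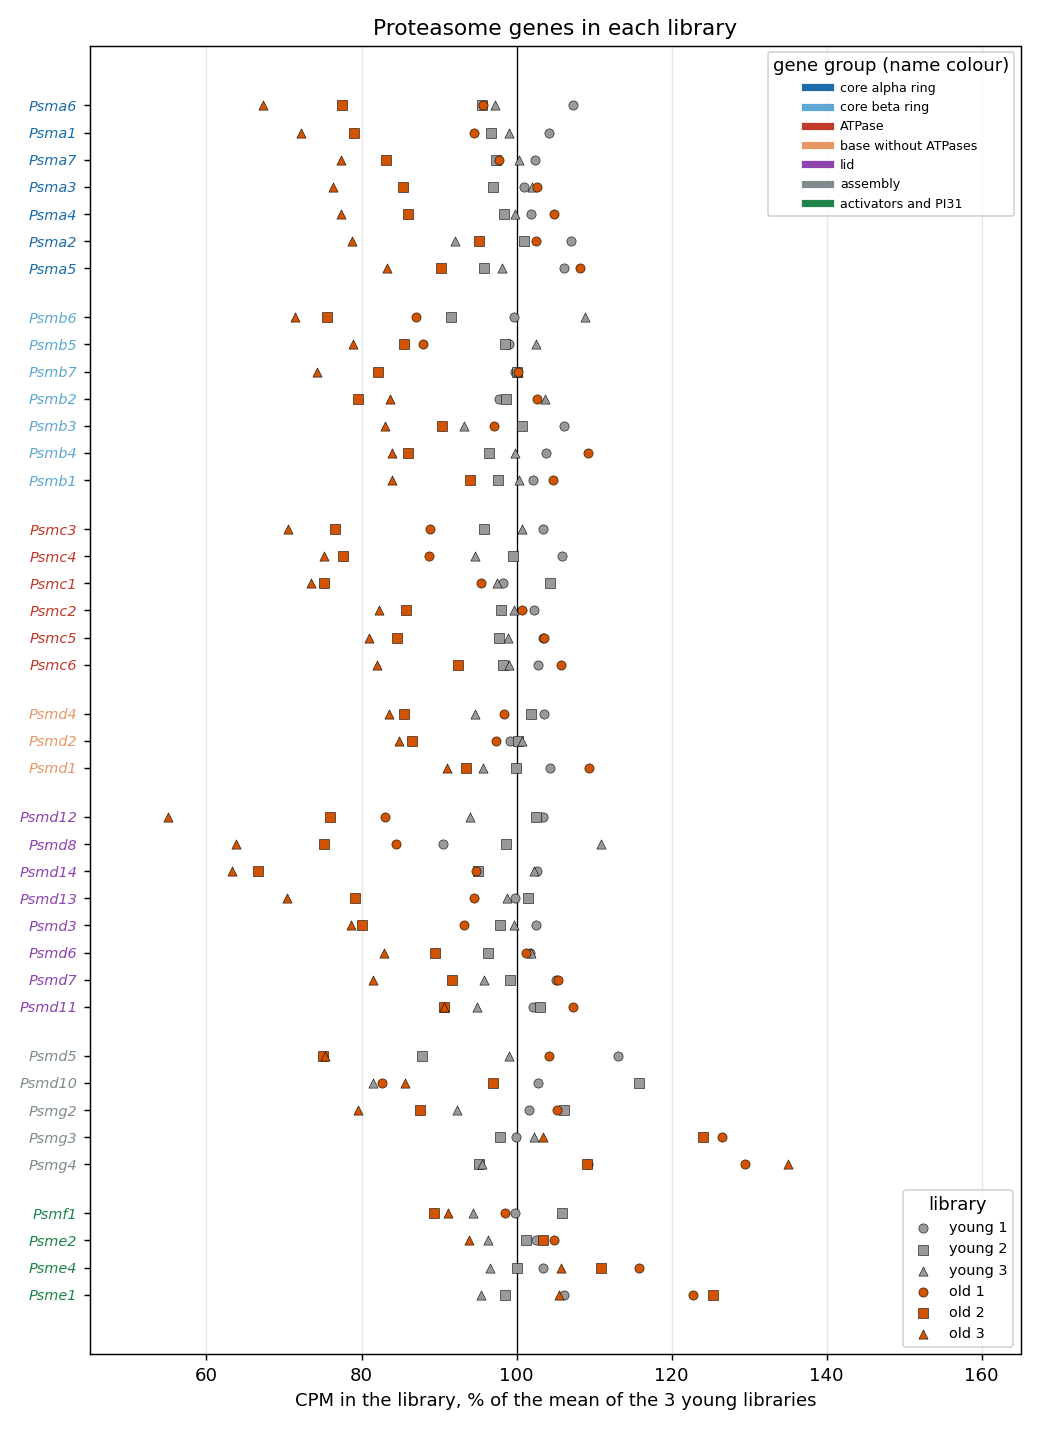
Level of each gene in each library as a percentage of its mean in the 3 young libraries (x axis), with young libraries in grey, old libraries in orange and gene names coloured by group. Old replicates 2 and 3 lie left of the grey points for nearly every structural gene and old replicate 1 does so for 12 of the 31, while for Psme1, Psme4, Psmg3 and Psmg4 the orange points are right of the line at the young mean.

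Without old replicate 1 the tests gave other counts. Summed over these genes, that library was the old one nearest to young, so leaving it out was bound to widen the difference. The calls below follow from that choice and are no further support for a change with age. Without old replicate 1, edgeR called 3 of the 40 genes, all lower in old, against 5.8% of all genes. They were Psmd14 at -0.62 (standard error, SE, 0.09, edgeR adjusted p = 0.0289), Psmc1 at -0.43 (adjusted p = 0.0409 from edgeR) and Psmc3 at -0.44 (adjusted p = 0.0471 from edgeR). At an unadjusted p under 0.05 there were 24 of 40, against 16.7% of all genes on the lower side, and DESeq2 called 23 of 40 lower in old, against 14.4%. The median of the 40 genes was -0.26 in that fit. Without old replicate 3 it was -0.10, edgeR called 0 genes, and DESeq2 called Psmd12 lower, against 4.98% of all genes, and Psme1 and Psmg3 higher, against 4.15%.

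By summed CPM, in which the most abundant genes weigh most, several marker lists, but not all, also set old replicate 1 nearest to the young libraries. VSM markers were at 34.5%, 21.4% and 21.9% of the young mean in old replicates 1, 2 and 3, fibroblast markers at 170%, 421% and 266%, and skeletal muscle markers at 89.2%, 235% and 196%. Proliferation markers were at 80.7%, 27.8% and 23.3%. Single genes of the VSM, fibroblast and skeletal muscle lists did not all follow their sums. Acta2 (28.8%, 14.7% and 18.6%), Pdgfra (161%, 271% and 163%) and Tnnt3 (99.0%, 265% and 204%) had old replicate 1 nearest to young. Myh11 (6.89%, 20.2% and 8.43%), Cd34 (399%, 171% and 44.0%) and Actn2 (18.9%, 15.5% and 141%) did not. Old replicate 1 was not the nearest in the other lists. Endothelial markers were at 127%, 111% and 90.2% in old replicates 1, 2 and 3. Macrophage markers were at 123%, 169% and 105%, and Schwann cell markers at 217%, 138% and 207%. The 10 proliferation genes, all in the table, summed to 736, 483 and 739 CPM in young replicates 1, 2 and 3 and to 527, 182 and 152 CPM in old replicates 1, 2 and 3. Young replicate 2, at 483 CPM, was below old replicate 1 in these markers, and the young range was wider than in the proteasome genes. All 10 had lower estimates in old, at a median of -1.29, and adjusted p from 0.129 to 0.288 from edgeR. With old replicate 1 left out, all 10 passed in edgeR. That library was the old one nearest to young in these markers, so leaving it out widened the difference. The part of these lists in the values of the proteasome genes was not tested.

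**Figure D3:**
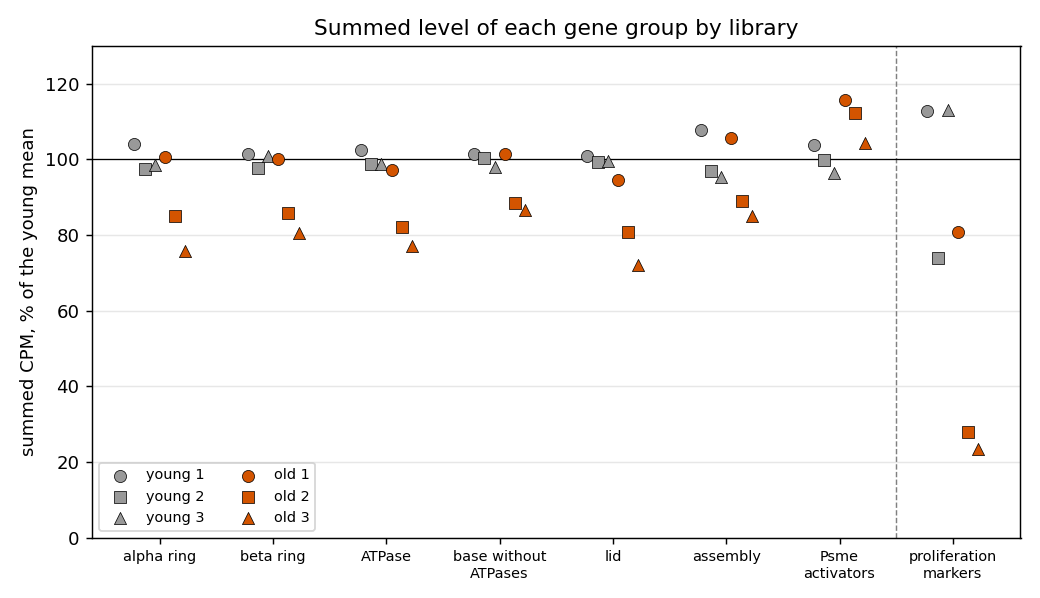
Summed CPM of each gene group in each library as a percentage of the mean of the young libraries (y axis from 0), with the proliferation markers to the right of the dashed line. Old replicates 2 and 3 are at 72.0% to 88.6% in the core, ATPase, base and lid groups and at 112% and 104% for the Psme activators, and the proliferation markers are at 27.8% and 23.3% in those libraries.

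The 14 genes of the core particle all had lower estimates in old, with a median of -0.18 on the log2 scale and a narrow range, from -0.36 to -0.09. The alpha ring, whose subunits form the gate of the barrel, had a median of -0.18 and the beta ring one of -0.17. Psma6 had the lowest value of the alpha ring, with 123, 109 and 111 CPM in young and 110, 88.8 and 77.1 CPM in old. Its groups overlapped by old replicate 1, and its log2 fold change was -0.32 (SE 0.14, edgeR adjusted p = 0.243). Psma5, at the other end of the ring, had 86.4, 77.9 and 79.8 CPM in young and 88.1, 73.5 and 67.8 CPM in old, a log2 fold change of -0.09 (SE 0.12). Psma1 was the alpha gene whose old libraries all lay below the young ones, at -0.29, and Psma7, Psma3, Psma4 and Psma2 lay between -0.22 and -0.12.

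The catalytic beta subunits were measured as follows. Psmb5, which cuts after hydrophobic residues, had 85.8, 85.4 and 88.9 CPM in young and 76.3, 74.1 and 68.4 CPM in old. The groups did not overlap, and the log2 fold change was -0.25 (SE 0.08, edgeR adjusted p = 0.167). Psmb6, which cuts after acidic residues, had 56.7, 52.1 and 62.0 CPM in young and 49.6, 43.1 and 40.7 CPM in old. Its groups were apart as well, with the lowest value of the beta ring at -0.36 (SE 0.11, edgeR adjusted p = 0.156). Psmb7, which cuts after basic residues, had 119, 119 and 119 CPM in young and 119, 98.0 and 88.5 CPM in old. Here old replicate 1 was at the level of the young libraries, and the log2 fold change was -0.23 (SE 0.13). The non-catalytic beta genes Psmb1, Psmb2, Psmb3 and Psmb4 lay between -0.17 and -0.09, with Psmb1 the nearest to 0, at 152, 145 and 149 CPM in young and 156, 140 and 125 CPM in old.

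The 250 bases before and 50 bases after the annotated start of a gene were at hand for 36 of the 40 genes (RefSeq, rat build GRCr8, which is not the build of the counts). The subunit genes lay on the same side of 0, and 5 motifs, chosen with the results known, were searched on both strands. TGACNNNGC, the core of the antioxidant response element to which Nfe2l1 and Nfe2l2 bind, was in 7 of the 36 promoters (19.4%), those of Psma3, Psmb2, Psmb5, Psmb6, Psmd1, Psmd3 and Psme4, compared with 12.1% of all 33469 promoters and 14.6% of the 10534 promoters of genes in the count table. CCAAT was in 17 (47.2%, against 37.5% and 37.8%), CCGGAAG, the core of ETS sites, in 12 (33.3%, against 8.75% and 17.5%), TGACGTCA in 1 (2.78%, against 1.83% and 3.15%) and the palindromic motif of nuclear respiratory factor 1, which is not Nfe2l1, in 5 (13.9%, against 4.25% and 9.89%). TGACNNNGC and TGACGTCA share their first letters and overlapped in 0 of these promoters. A match of letters is a description and not a site.

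The promoters of 2 catalytic subunits with TGACNNNGC (Psmb5, minus strand, chr15:32047330-32047629; Psmb6, plus strand, chr10:55737638-55737937), of the activator gene Psme4 with the same motif (plus strand, chr14:108706393-108706692) and of the lid gene Psmd13 with CCAAT and CCGGAAG (plus strand, chr1:205393998-205394297) are shown because genes on both sides of 0 carry these motifs. Capitals mark TGACNNNGC in the first 3 and CCAAT and CCGGAAG in the last, on either strand.
Psmb5: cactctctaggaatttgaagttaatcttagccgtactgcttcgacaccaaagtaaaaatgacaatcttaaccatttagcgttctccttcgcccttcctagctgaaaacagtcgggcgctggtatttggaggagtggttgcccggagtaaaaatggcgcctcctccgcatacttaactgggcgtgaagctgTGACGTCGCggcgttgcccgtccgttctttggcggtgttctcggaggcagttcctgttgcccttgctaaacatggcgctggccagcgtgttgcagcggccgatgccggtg
Psmb6: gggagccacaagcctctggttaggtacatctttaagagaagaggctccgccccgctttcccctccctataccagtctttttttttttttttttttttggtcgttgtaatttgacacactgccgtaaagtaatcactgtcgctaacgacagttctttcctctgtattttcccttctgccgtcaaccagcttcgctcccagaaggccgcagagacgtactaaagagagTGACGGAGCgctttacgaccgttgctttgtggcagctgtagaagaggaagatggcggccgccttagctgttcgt
Psme4: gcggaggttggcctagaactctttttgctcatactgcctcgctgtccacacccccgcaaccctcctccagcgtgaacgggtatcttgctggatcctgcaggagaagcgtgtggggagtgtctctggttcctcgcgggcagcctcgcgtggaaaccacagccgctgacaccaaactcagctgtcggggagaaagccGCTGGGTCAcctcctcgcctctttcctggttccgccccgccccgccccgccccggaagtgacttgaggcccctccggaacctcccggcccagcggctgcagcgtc
Psmd13: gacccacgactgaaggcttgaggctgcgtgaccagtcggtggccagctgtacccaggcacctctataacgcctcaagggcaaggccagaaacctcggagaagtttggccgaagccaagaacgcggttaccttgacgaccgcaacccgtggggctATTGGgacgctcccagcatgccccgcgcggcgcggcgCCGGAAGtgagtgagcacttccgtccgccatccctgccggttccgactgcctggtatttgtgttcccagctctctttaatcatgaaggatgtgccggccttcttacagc
The first capital of the TGACNNNGC match, read along the gene, was 60 bases before the start in Psmb5, 24 in Psmb6 and 55 in Psme4. In Psme4 the motif is on the other strand, so this is its last base.

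The ATPase ring had a median log2 fold change of -0.23. Psmc3, Psmc4 and Psmc1 were the genes whose old libraries all lay below the young ones, at -0.35, -0.31 and -0.30, and Psmc2, Psmc5 and Psmc6 overlapped, at -0.16, -0.16 and -0.10. Psmc3 had 202, 187 and 196 CPM in young and 173, 149 and 138 CPM in old (SE 0.11, edgeR adjusted p = 0.160). Psmc4 had 103, 97.3 and 92.4 CPM in young and 86.7, 75.9 and 73.5 CPM in old (SE 0.10, edgeR adjusted p = 0.159). Psmc6, the nearest to 0, had 163, 156 and 157 CPM in young and 168, 147 and 130 CPM in old, with old replicate 1 the highest of the 6. Of the other base subunits, Psmd2 and Psmd4, a scaffold and a ubiquitin receptor, were at -0.16, with the groups apart, and -0.17, while the scaffold Psmd1 was at -0.03 (SE 0.11). Psmd4 had 95.7, 94.1 and 87.5 CPM in young and 91.0, 79.0 and 77.2 CPM in old, overlapping by old replicate 1. Psmd1 had 194, 186 and 178 CPM in young and 203, 174 and 169 CPM in old, so that its libraries crossed.

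The lid had the lowest median of the subcomplexes, -0.27, and its genes were spread from -0.49 to -0.06. Psmd12, a scaffold subunit, had 155, 154 and 141 CPM in young and 124, 114 and 82.5 CPM in old. The groups did not overlap, and the log2 fold change was -0.49 (SE 0.16, edgeR adjusted p = 0.166). Psmd8 had 109, 118 and 133 CPM in young and 101, 90.3 and 76.5 CPM in old, again without overlap, at -0.43 (SE 0.14, edgeR adjusted p = 0.157). Psmd14, the deubiquitinase of the lid, had 103, 95.0 and 102 CPM in young and 94.8, 66.6 and 63.3 CPM in old. Its old replicate 1 came within 1 CPM of the lowest young library, whereas old replicates 2 and 3 were far below, and the log2 fold change was -0.42 (SE 0.17, edgeR adjusted p = 0.212). Psmd13 and Psmd3 were apart too, at -0.30 and -0.25. Psmd6, Psmd7 and Psmd11 overlapped, at -0.13, -0.11 and -0.06. Psmd11, a scaffold subunit, had 97.5, 98.4 and 90.7 CPM in young and 103, 86.6 and 86.6 CPM in old (SE 0.10, edgeR adjusted p = 0.761), and its old libraries lay on both sides of the young ones.

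Assembly factors lay on both sides of 0, and none passed the test. Psmd5 and Psmd10, chaperones of the base that leave before the complex is complete, were at -0.24 and -0.18, and Psmg2, part of a chaperone of the alpha ring, at -0.14, all with overlapping groups. Psmd5 had 64.9, 50.4 and 56.8 CPM in young and 59.8, 43.0 and 43.2 CPM in old (SE 0.17). The partner genes Psmg3 and Psmg4, whose products act together on the alpha ring, were at 0.24 and 0.32. Psmg4 had 8.40, 7.31 and 7.35 CPM in young and 9.95, 8.39 and 10.4 CPM in old (SE 0.14, edgeR adjusted p = 0.246), and its groups overlapped because old replicate 2 lay just under young replicate 1. Psmg3 had 15.1, 14.8 and 15.4 CPM in young and 19.1, 18.7 and 15.6 CPM in old, with every old library above the young ones (SE 0.11, edgeR adjusted p = 0.267).

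The activator genes had estimates above 0, in contrast to the subunit genes, and none passed the test. Psme4 had 209, 202 and 196 CPM in young and 234, 224 and 214 CPM in old. All old libraries were above all young ones, old replicate 1 most of all, and the log2 fold change was 0.15 (SE 0.09, edgeR adjusted p = 0.349). Psme1 had 46.4, 43.1 and 41.7 CPM in young and 53.7, 54.8 and 46.1 CPM in old. Old replicate 3 lay just inside the young range, and the log2 fold change was 0.24 (SE 0.10, edgeR adjusted p = 0.228). Psme2, the partner of Psme1 in PA28, had 30.6, 30.2 and 28.8 CPM in young and 31.3, 30.9 and 28.0 CPM in old, at 0.01 (SE 0.09), and its sign turned when young replicate 3, old replicate 1 or old replicate 2 was left out. Psmf1, which encodes the inhibitor PI31, had 20.9, 22.2 and 19.8 CPM in young and 20.7, 18.8 and 19.1 CPM in old, at -0.10 (SE 0.10).

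Counts set against the core genes of the same library do not depend on how libraries are scaled. Psme4 had 13.6, 13.9 and 13.1 counts per 100 counts of the 14 core genes in the young and 15.6, 17.6 and 18.4 in the old libraries. Its ratio was thus 13.5 ± 0.367 (SD, n = 3) in young and 17.2 ± 1.41 (SD, n = 3) in old, 1.27 times higher, with no overlap. Psme1 went from 2.92 ± 0.109 to 3.94 ± 0.356 (SD, n = 3 each), 1.35 times higher, and Psme2 from 1.998 ± 0.0685 to 2.30 ± 0.186 (SD, n = 3 each), 1.15 times higher, both without overlap. The summed CPM of the core genes was at 100%, 85.5% and 78.0% of the young mean in old replicates 1, 2 and 3. A gene with a steady level therefore has a higher ratio in old. Psme2 was such a gene, with a log2 fold change of 0.01 and overlapping CPM. Within old, the ratio was lowest in old replicate 1 for Psme1, Psme2 and Psme4. The lid went the other way, with 58.9, 61.2 and 60.1 counts per 100 core counts in young and 56.6, 56.7 and 55.5 in old, so that here old replicate 1 was as far from the young libraries as old replicate 2. Of 3 lid genes set against the core, Psmd12 was at 10.02 ± 0.528 in young and 8.09 ± 0.929 in old and Psmd14 at 6.68 ± 0.184 and 5.65 ± 0.584 (SD, n = 3 each), both without overlap. Psmd8 overlapped, at 8.04 ± 0.946 and 6.79 ± 0.254 (SD, n = 3 each). The ATPase ring stayed nearer to the core, at 56.1 ± 0.529 in young and 54.5 ± 0.809 in old (SD, n = 3 each), and the base without ATPases and Psmf1 overlapped between the ages. These ratios were added after the values had been seen and carry no test. The share of all genes whose ratio to the core separates the ages was not computed.

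**Figure D4:**
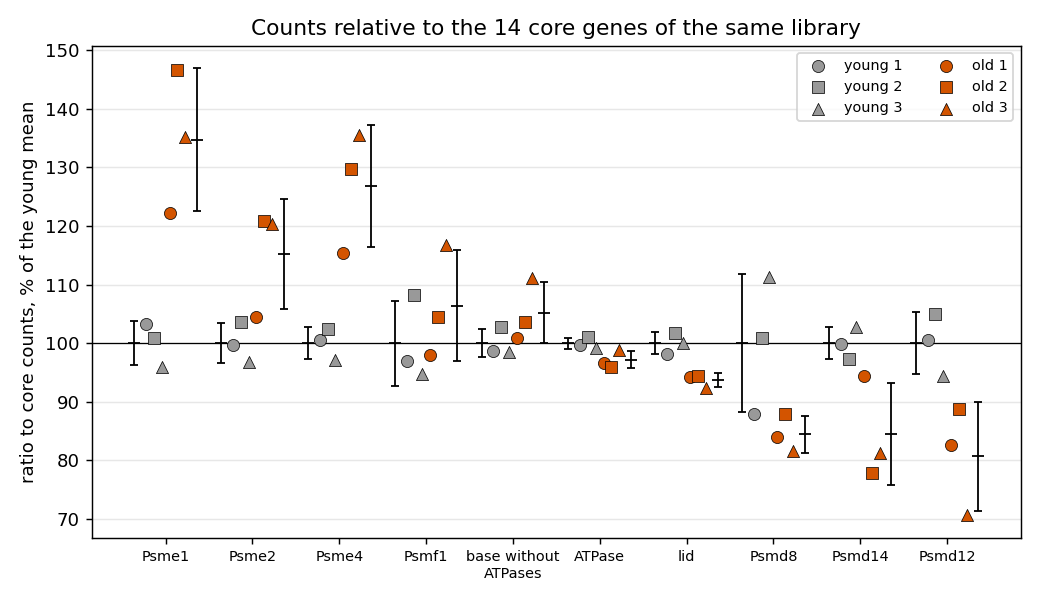
Counts of activator genes, the inhibitor gene Psmf1, the other subcomplexes and 3 lid genes relative to the 14 core genes of the same library, as a percentage of the mean ratio in young (y axis, which does not start at 0), with mean ± SD per age group as black bars. The old libraries lie above the young ones for Psme1, Psme2 and Psme4 and below them for the ATPase ring, the lid, Psmd14 and Psmd12, and overlap with them for Psmd8, Psmf1 and the base without ATPases.

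Other genes of the pathway were taken as whole lists by role. edgeR called 0 genes of these lists at an adjusted p under 0.05, and the counts at an unadjusted p are given instead. Of 9 further parts or partners of the proteasome in the table, 8 were on the lower side, with a median of -0.22, and 4 of the 9 had an unadjusted p under 0.05, all lower, against 11.5% of all genes. Uchl5 and Usp14, the deubiquitinases that dock on the base, were at -0.38 and -0.37, and Pomp, which matures the beta ring, was at -0.37. Uchl5 had 15.9, 16.2 and 17.2 CPM in young and 13.6, 11.7 and 12.7 CPM in old, without overlap (adjusted p = 0.132 from edgeR). Adrm1, the ubiquitin receptor to which Uchl5 binds, was at -0.22, and DESeq2, which called 6.75% of all genes lower and 5.71% higher, called Uchl5 and Adrm1 lower (adjusted p = 0.0278 and 0.0438 from DESeq2). Akirin2, which carries proteasomes into the nucleus, was the gene on the other side, at 0.09. Without old replicate 1, edgeR called Pomp (-0.54, adjusted p = 0.0293) and Usp14 (-0.54, adjusted p = 0.0365). In both genes that library was the old one nearest to young, so leaving it out widened the difference.

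Of the 6 ubiquitin and E1 genes, 4 were on the lower side and 1 had an unadjusted p under 0.05, the E1 gene Uba6, at -0.68 (SE 0.24). The ubiquitin gene Rps27a was at 0.15. Of the 12 shuttle and p97 genes, 10 were on the lower side. An unadjusted p under 0.05 was found for 2 of the 12 lower in old, against 11.5% of all genes, and for 1 higher, against 11.2%. The shuttle genes Ubqln1 and Ubqln2, which carry ubiquitinated proteins to the proteasome, were at -0.49 and -0.46, and DESeq2 called both lower (adjusted p = 0.0132 and 0.0374 from DESeq2). Ubxn1, a p97 cofactor that binds ubiquitin, was farthest from 0 in its list, with 77.7, 76.0 and 65.7 CPM in young and 114, 114 and 129 CPM in old. Its groups were far apart, at 0.70 (SE 0.11, edgeR adjusted p = 0.0557), and DESeq2 called it higher (adjusted p = 1.81e-06 from DESeq2).

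Nfe2l1 encodes the transcription factor that is released when proteasome activity is reduced and that induces the subunit genes. It had 332, 384 and 319 CPM in young and 385, 413 and 536 CPM in old. All old libraries were above the young ones, old replicate 1 by less than 1 CPM and old replicate 3 by the most, with a log2 fold change of 0.37 (SE 0.16, edgeR adjusted p = 0.235). Of the 9 genes around Nfe2l1 in the table, 6 were on the higher side and 0 of these had an unadjusted p under 0.05, against 11.2% of all genes. The other 3 were on the lower side. Of these, 2, Mafk and Maff, had an unadjusted p under 0.05, against 11.5% of all genes. The small Maf partners of Nfe2l1 lay on both sides of 0, with Mafk and Maff at -0.98 and -0.59 and Mafg at 0.16 (SE 0.20). DESeq2 called Mafk lower (adjusted p = 0.000400 from DESeq2). Mafk was at 3.90, 4.47 and 4.21 CPM in young and 1.71, 2.33 and 2.35 CPM in old. Ddi2 and Ngly1, which process the Nfe2l1 protein, were at 0.04 and 0.23.

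**Figure D5:**
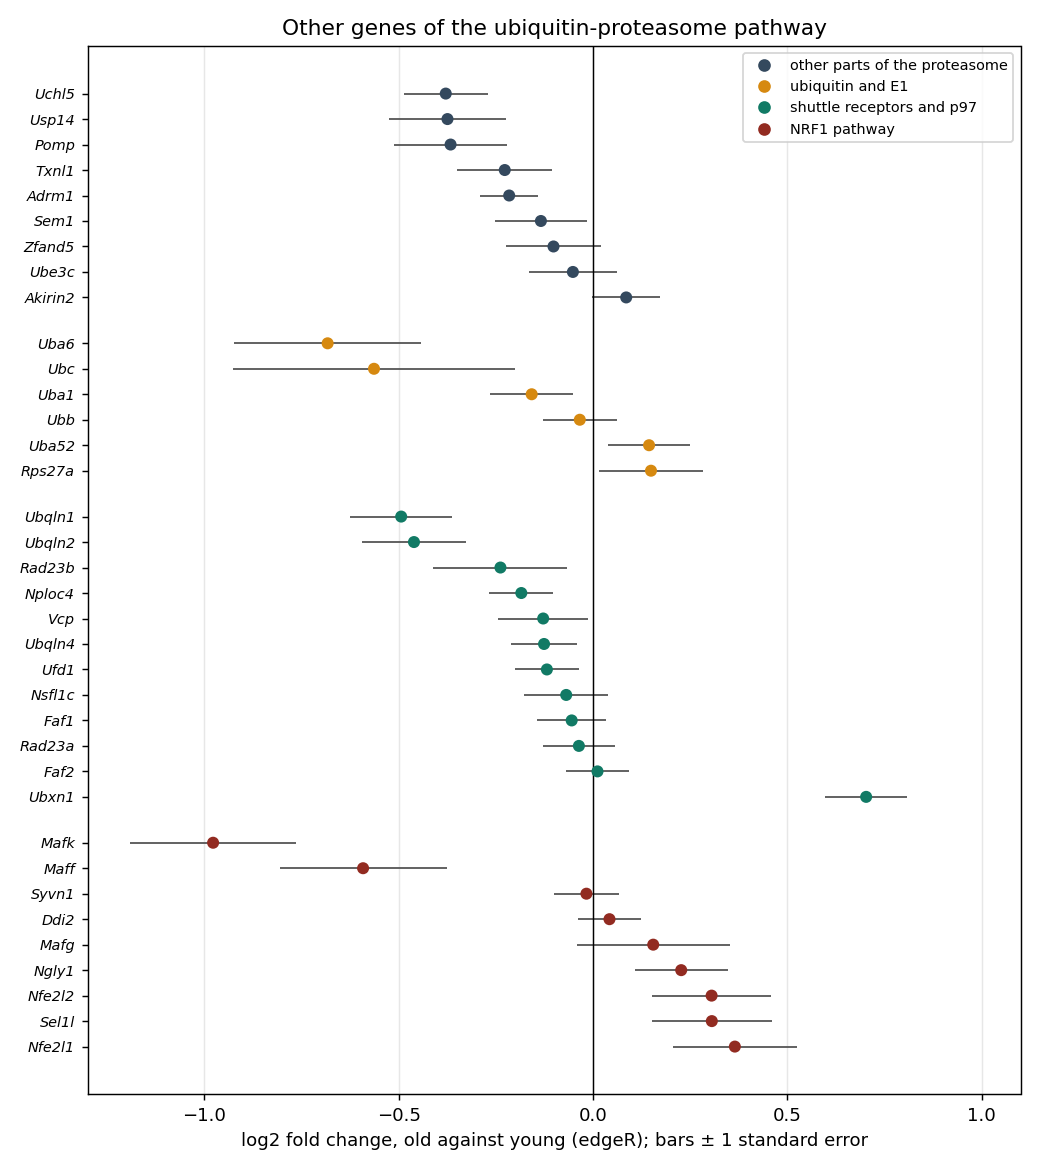
Log2 fold change (edgeR, x axis, bars 1 standard error) of genes of the ubiquitin-proteasome pathway outside the 40 genes, by list. Most proteasome partners and shuttle genes lie left of 0, Ubxn1 is at 0.70 and Nfe2l1 at 0.37, and Mafk is the lowest at -0.98.

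The inducible core genes Psmb8 and Psmb9 were low, with 2.79 to 6.58 CPM and 2.97 to 6.20 CPM in the young libraries. They did not differ beyond their spread, at -0.23 (SE 0.38) and 0.20 (SE 0.30).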

How the data were processed

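VSM cells were cultured from the SFA of 3 young and 3 old rats, with 1 library per culture. Per the labels and the Methods, the authors trimmed reads with Cutadapt 3.5 through Trim Galore 0.6.7, aligned them with STAR 2.7.10b to the rat assembly 6.0 and counted them with featureCounts (Subread 2.0.8). The deposited values are raw counts per gene, whole numbers without normalization, under Ensembl identifiers with symbols. The Methods name a RefSeq annotation, and which annotation was counted on is not known here. Between 68.7% and 71.1% of counts from 1 to 19 were even, so mates may have been counted singly. The total counts of every library also exceeded the sequencing depth per sample that the paper states. For strand and multi-mapping reads, the settings were not given in the sources used here. RefSeq (GRCr8) names 48 further loci after 18 of the 40 genes, mostly pseudogenes, of which 1 (Psmb6l1) is in the table, and reads could be split among them.

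All 14475 genes were fitted in R 4.3.3 with edgeR 4.0.16 (TMM, quasi-likelihood F test, Benjamini-Hochberg adjustment over all genes, young as reference, no covariates). Standard errors (SE) were derived from the F statistic and the estimate. DESeq2 1.42.0 and limma-voom (limma 3.58.1) were alternatives, and 292 genes had no adjusted p in DESeq2. Further alternatives were a filter of at least 1 CPM in 3 libraries, RLE factors, total counts, a replicate block, halved counts and each library left out. DESeq2 with a library left out, the ratios to core genes and the motifs were added after the data had been seen. Each fit was tested on simulated data with 200 of 14475 genes changed, of which edgeR recovered 86.5% to 87.0% at a log2 change of 2 and 0% to 23.5% at 1. DESeq2 recovered 94% to 95.5% and 62.5% to 63.5%, with 60 to 67 unchanged genes called at 2 and 63 at 1, against 6 to 12 and 0 to 5 for edgeR. The changed genes were drawn at random above 1 CPM, so that these rates do not describe the 40 genes, whose estimates were smaller than 1. Of 45 symbols listed for the complex, 5 (Psma8, Psmb11, Psmd9, Psme3 and Psmg1) were not analysed here, nor was Psmb10. The members, lists, motifs and tests were chosen with earlier results of these data known. All genes were described, and values by library were given for the largest and smallest change of each subcomplex, the lowest p-values, the catalytic genes, Psmd14, Psmd11 and the Psme genes. For same-numbered libraries of the groups, the labels give no link beyond the number.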

Additional observations from a re-analysis of the deposited data

How the results depend on the processing

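With the other filter, the other normalizations, DESeq2, limma-voom, halved counts or the replicate block, the number of genes lower in old at an unadjusted p under 0.05 stayed between 8 and 11 (main value 9), 0 were called, and the medians of the 40 genes, the core, the ATPase ring and the lid moved by less than the spread between libraries. The median of all genes was 0.02 with TMM, 0.01 with RLE and 0.03 with total counts only. With the replicate block there were 8 such genes and 0 calls. At that unadjusted p, shares over all genes were computed for the main fit, DESeq2 and limma-voom, and not for the other alternatives. Deviations of same-numbered libraries correlated at 0.06, 0.33 and 0.31 over 12108 genes and 3 of the 6 libraries correlated best with their own number. Whether the number on which the block rests marks a shared batch is not given in the labels.

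Leaving out 1 library mattered more. In edgeR the number of calls ranged from 0 to 3, that of genes lower at an unadjusted p under 0.05 from 2 to 24 and that of genes higher from 0 to 2, with the top of the first 2 ranges without old replicate 1 (3 and 24) and that of the last without old replicate 3 (2 genes, against 1 without old replicate 2). Without any other library, 2 or 3 genes were lower at that threshold, with fewer libraries in the fit. DESeq2 with a library left out, added after the data had been seen, gave 0 to 23 calls (23 without old replicate 1, 3 without old replicate 3), 4 to 27 genes lower (5 without young replicate 1, young replicate 2 or old replicate 2, 4 without young replicate 3, 27 without old replicate 1) and 0 to 3 genes higher (1 without young replicate 1 or old replicate 2, 3 without old replicate 3). Shares over all genes were computed only for the counts given with a share above, so the other counts cannot be set against all genes. The median of the 40 genes lay between -0.26 and -0.10 over the libraries left out of edgeR.

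Over 13 alternatives, 38 of the 40 genes kept their direction. Psmd1, between -0.12 and 0.0199 with a library left out, turned to 0.00027 without old replicate 2 and 0.0199 without old replicate 3. Psme2, between -0.0203 and 0.0582, turned to -0.0162 without young replicate 3, -0.0203 without old replicate 1 and -0.0110 without old replicate 2. The cause was not tested. In simulated libraries at this depth edgeR recovered at most 23.5% of genes changed by 1 on the log2 scale. Those genes were drawn at random above 1 CPM, so that rate does not describe the 40 genes, whose estimates were smaller than 1.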

Other observations

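Some genes carry a similar symbol without being part of the complex. Psmc3ip, a partner of the meiotic recombinases named after Psmc3, had 11.5, 9.48 and 7.63 CPM in young and 7.40, 7.41 and 3.92 CPM in old, a log2 fold change of -0.61 (SE 0.29, edgeR adjusted p = 0.265). Psme3ip1, which encodes a nuclear protein that binds the Psme3 activator, had 24.8, 27.8 and 24.5 CPM in young and 27.2, 27.3 and 28.9 CPM in old, at 0.11 (SE 0.09, edgeR adjusted p = 0.479). Psmb6l1, a further gene named after Psmb6, had 22 to 40 counts in a library, against at least 2180 for Psmb6.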
